A study of Mus musculus with 27 samples.

Results

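Fibrotic-like periportal assembloids kept for 2.5 weeks were compared with freshly isolated hepatocytes on the read counts of every gene. The comparison was defined by the sample titles, took 3 libraries of each kind, and used 6 of the 27 bulk RNA-seq libraries of the series. Of 13388 genes with enough counts, 5346 (39.9%) passed an adjusted p of 0.05, of which 3014 (22.5% of the genes tested) were higher in the assembloids and 2332 (17.4%) were lower. All 8 urea cycle genes tested, 15 of 22 cytochrome P450 genes and 9 of 11 bile acid synthesis genes of hepatocytes were lower in the assembloids, coagulation and carrier proteins of plasma were lower or did not pass the test, and most collagens, matrix proteases, chemokines and cholangiocyte keratins tested were higher.

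An assembloid is a small tissue built from separately expanded cells. Here 10 HepOrgs, which are organoids of hepatocytes, were aggregated with 1000 cholangiocytes and 2500 portal mesenchymal cells, embedded in Matrigel and cultured for 18 days in MM, the study's minimal medium, which carries Wnt conditioned medium and a ROCK inhibitor. Homeostatic assembloids of the same age and medium received 250 mesenchymal cells, and HepOrgs alone were kept in MM for 14 days. All groups have the C57BL/6 background and no added treatment, and the study worked with adult mice of both sexes without giving a sex for a library. In the study's methods the mesenchyme came from PDGFRα-H2B-GFP reporter mice and the cholangiocytes carried a tdTomato reporter. No endothelial cells or macrophages were added to any assembloid. The fresh hepatocytes were never cultured, so culture, matrix, medium and the 2 added cell types all separate them from the assembloids and cannot be told apart. The third fresh hepatocyte library is titled wild type but carries the genotype label MDR2-het. MDR2 is Abcb4, the canalicular phospholipid carrier, which stood at 269.8, 218 and 116 CPM in the 3 fresh libraries, lowest in that one, and at 143, 28.9 and 181 CPM in the assembloids, so the groups overlapped. CPM is the count scaled to a common library size with TMM factors, and values are always given in the order of replicates 1, 2 and 3.

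The labels do not say whether replicates were separate cultures or animals, so the p-values measure the spread between these libraries. Library totals were 32893944 to 59705040 counts in the assembloids and 34082074 to 53113534 in fresh hepatocytes, and mitochondrial genes took 2.05% to 2.25% and 4.11% to 5.03% of them. In 1 assembloid library, replicate 2, the 100 most abundant genes took 28.0% of the counts, against 46.2% and 47.1% in the other two, and it had the lowest sum of the study's hepatocyte markers and the highest sum of its cholangiocyte markers. Among fresh hepatocytes, replicate 2 had the most transcripts of endothelial cells and macrophages, and replicate 1 the most immediate early transcripts. Without fresh hepatocyte replicate 3, 1812 genes were higher and 1410 lower, and without assembloid replicate 2, 2647 were higher and 2181 lower.

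Hepatocytes make most plasma proteins and carry out urea synthesis, gluconeogenesis, bile acid synthesis and the oxidation of drugs, with many of these enzymes zoned between the portal and central veins. Cholangiocytes line the bile ducts, and portal fibroblasts surround them with matrix. In biliary fibrosis, fibroblasts lay down fibrillar collagens, proteases and crosslinking enzymes remodel them, and ductular cells with biliary keratins increase in number.

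Promoter windows are shown for genes of the plasma protein and contractile lists, with a short motif searched for in each list. They were picked by motif and read count, and of the genes shown only Cnn2 passed the test against fresh hepatocytes. The HNF1 motif GTTAAT, searched on both strands, occurred in 8 of 33 plasma protein promoters (24.2%) and in 1946 of 27025 promoters in all (7.20%). The CArG box, the serum response factor motif, occurred in 3 of 16 contractile promoters (18.8%: Cnn2, Myl9 and Vcl) against 425 in all (1.57%), and TATAAA occurred in 3 of 22 collagen promoters (13.6%) against 3827 in all (14.2%). Sequences are from RefSeq on GRCm38.p6, promoters run from 250 bases before to 50 after the start, and capitals mark the motif in these windows of Alb (chr5:90460802-90460869, plus strand), Fgb (chr3:83049864-83049928, minus strand), Cnn2 (chr10:79988508-79988589, plus strand) and Vcl (chr14:20929148-20929216, plus strand).
Alb: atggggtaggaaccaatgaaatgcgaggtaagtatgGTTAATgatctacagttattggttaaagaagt
Fgb: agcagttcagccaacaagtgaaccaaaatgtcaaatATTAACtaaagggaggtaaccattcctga
Cnn2: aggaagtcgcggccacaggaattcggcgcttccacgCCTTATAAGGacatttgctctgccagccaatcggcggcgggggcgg
Vcl: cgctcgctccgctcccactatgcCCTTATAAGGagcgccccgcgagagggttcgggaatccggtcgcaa
A match is a description of the letters, and binding was not measured.

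**Figure D1:**
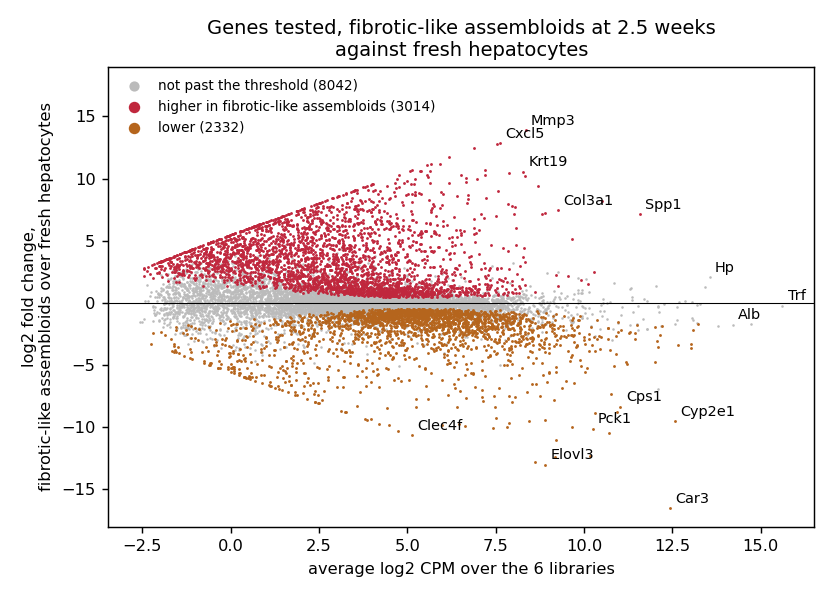
Each point is 1 of 13388 genes, with the average log2 CPM of the 6 libraries on the x axis and the log2 fold change of fibrotic-like assembloids over fresh hepatocytes on the y axis. The 3014 genes past an adjusted p of 0.05 and higher and the 2332 that were lower are coloured, and the 8042 genes not past it are grey.

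The spread between the ends of the comparison was wide. Among well-counted genes (a mean log2 CPM of 5 or more over the 6 libraries) whose groups were apart, the 10 highest log2 fold changes belonged to Mmp3, Cxcl5, Sprr1a, Chil4, Cdh17, Mmp7, Krt20, Reg3b, Prom1 and Mmp10, from 13.89 down to 10.67. The 10 lowest belonged to Car3, Elovl3, Mup11, Sult2a8, Mup7, Slco1a1, Clec4f, Ces3a, Pck1 and Mup16, from −16.48 up to −10.06. The Mup genes are near-identical copies that may share reads. Car3, a carbonic anhydrase abundant in liver (ENSMUSG00000027559, chr3:14928489-14937595 on the plus strand in GRCm39), had 11831, 8061 and 12818 CPM in fresh hepatocytes and 0.0950, 0.0327 and 0.103 CPM in the assembloids (log2 fold change −16.48 ± 0.96, adjusted p = 0.00062). Mmp3, the protease stromelysin (ENSMUSG00000043613, chr9:7445822-7455975 on the plus strand), had 500.5, 389 and 1036 CPM in the assembloids and no count in any fresh hepatocyte library, which makes it at least 22586.6-fold higher when the fresh group is set to 3 counts in all (log2 fold change 13.89 ± 0.79, adjusted p = 0.00127). Fitted log2 fold changes include a prior count of 2, which draws those of genes near 0 in a group towards 0, so this one lies below its bound. Of the 13388 genes, 7762 (58.0%) had libraries that did not overlap between the groups, 4171 (31.2%) higher and 3591 (26.8%) lower. At an unadjusted p under 0.05, 6677 genes (49.9%) passed. The median over all genes tested was 0.031 on the log2 scale, and 56.4% of the calls were higher. On log2(TPM + 1) values the median was 0.776 and 86.8% of the calls were higher, so a small change in either direction depended on the scaling. There 4591 of 9508 genes tested were higher and 700 lower, and list counts on those values are to be read beside these.

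The genes that took the most reads were alike in kind in both groups. In the assembloids they included Trf, Hp, Hpx, Apoe, Fgb, Fga, Fgg, Alb and Scd1, and in fresh hepatocytes Trf, Apoe, Alb, Apoa1, Mup3, Apoa2, mt-Co1, mt-Nd1, mt-Cytb and Gc, an order that also depends on gene length. Plasma protein genes summed to a mean of 156083.7 CPM in the assembloids and 304267.4 CPM in fresh hepatocytes. The means were 251872.5 CPM in homeostatic assembloids and 234269.1 CPM in MM HepOrgs. These sums are on the TMM scale and are not shares of the reads of a library.

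The fibrotic-like assembloids were also tested against the other cultures. Against homeostatic assembloids of the same age 681 of 13875 genes (4.91%) passed, 626 higher (4.51%) and 55 lower (0.396%), and against MM HepOrgs 2143 (15.4%) passed, 1438 higher (10.4%) and 705 lower (5.08%). These tests share the fibrotic-like libraries with the comparison to fresh hepatocytes, so their values are given side by side only. The test against homeostatic assembloids rests on single libraries, with 52 genes past the threshold without fibrotic-like replicate 3, 107 without replicate 2, 13 and 20 without homeostatic replicates 1 and 3, and 1203 without fibrotic-like replicate 1. Without homeostatic replicate 2, edgeR called 0 genes, with 3081 at an unadjusted p under 0.05. The test against MM HepOrgs gave 1038 genes without fibrotic-like replicate 2 and 819 and 499 without HepOrg replicates 1 and 2.

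The cells named in the labels were checked against their defining markers. The 6 cholangiocyte markers the study uses summed to 660, 3712 and 814 CPM in the assembloids and 14.6, 26.0 and 11 CPM in fresh hepatocytes. The 9 mesenchymal markers of the study summed to 1026, 3508 and 4104 CPM against 6.22, 42.4 and 24.2 CPM. The hepatocyte markers of the study summed to 47516.7, 10469.1 and 50448.3 CPM in the assembloids and 81306.2, 118869.3 and 63677.8 CPM in fresh hepatocytes, so all 3 kinds of cell were represented and the groups did not overlap for any of the 3 sums. Endothelial markers summed to 69.9, 83.3 and 128 CPM against 250, 484 and 420 CPM, and immune markers to 5.22, 10.9 and 9.88 CPM against 60.02, 613 and 234 CPM, so the fresh preparation held more non-parenchymal transcripts of both kinds. Most of the endothelial sum in the assembloids came from Eng and Dpp4, which fibroblasts and hepatocytes also carry. Dpp4 also made up most of it in fresh hepatocyte replicate 1. In bulk libraries, fewer cells of a type and less RNA per cell cannot be told apart, and this holds for each result that follows.

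**Figure D2:**
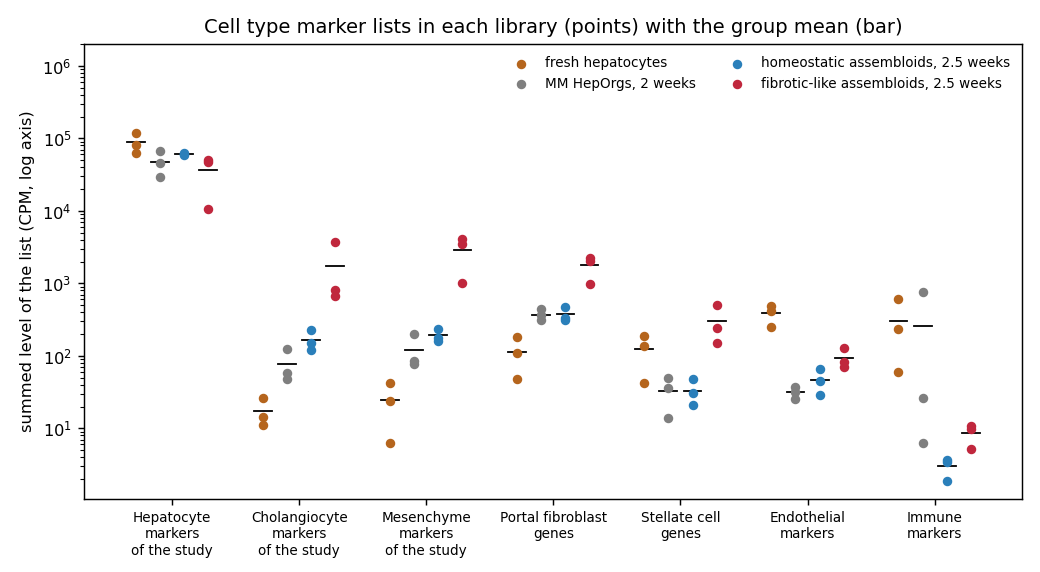
Summed CPM of 7 cell type marker lists on a log axis, with 1 point per library for fibrotic-like assembloids, fresh hepatocytes, homeostatic assembloids and MM HepOrgs. The cholangiocyte and mesenchymal sums of the 3 fibrotic-like libraries lie above every fresh hepatocyte library, and the endothelial and immune sums lie below.

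Hepatocyte transcription factors were lower in the assembloids. Of 18 tested, 13 fell and none rose, with a median log2 fold change of −1.52, where 17.4% of all genes fell and 22.5% rose. These 2 shares are to be set beside each list count against fresh hepatocytes that follows. On log2(TPM + 1) values 6 of 17 fell, with a median of −0.53. The 13 became 8 without assembloid replicate 3, 7 without fresh hepatocyte replicate 1 and 6 without fresh hepatocyte replicate 3. Hnf4a, a nuclear receptor that maintains hepatocyte identity, stood at 139.8, 83.0 and 142 CPM against 354, 311 and 236 CPM in fresh hepatocytes (log2 fold change −1.31 ± 0.29, adjusted p = 0.0144). All 3 assembloid libraries were below all 3 fresh libraries, but on log2(TPM + 1) values the log2 fold change of Hnf4a was −0.29 and did not pass (adjusted p = 0.321). Cebpa, which drives liver metabolic genes, was 10.8-fold lower in the fit, at 18.7, 7.52 and 21.3 against 196, 147 and 168 CPM (log2 fold change −3.43 ± 0.41, adjusted p = 0.00245). Klf15, a regulator of amino acid catabolism, was at 24.0, 5.38 and 29.0 against 245, 222 and 203 CPM (log2 fold change −3.52 ± 0.61, adjusted p = 0.0065). The call of these 3 genes was kept without each single library. Cebpb and Esrra, an acute phase regulator and a regulator of mitochondrial genes, had log2 fold changes of −0.47 and −0.29 and did not pass the test.

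Plasma proteins were lower or did not pass the test. Of 39 tested, 18 fell (46.2%, against 17.4% of all genes), none rose and 21 did not pass, with a median of −1.83. On log2(TPM + 1) values 19 fell and 4 rose, where 700 of all 9508 genes fell and 4591 rose. In 28 of the 39 every assembloid library was below every fresh one, which held for 26.8% of all genes tested. Several genes that did not pass were thus also lower in all libraries. The 18 became 11 without fresh hepatocyte replicate 1 and 9 without replicate 3. Trf, the iron carrier transferrin (ENSMUSG00000032554, chr9:103081200-103107814 on the minus strand), had 46793, 18940.5 and 70421 CPM in the assembloids and 55559, 49737 and 53872 CPM in fresh hepatocytes, with overlapping groups (log2 fold change −0.23 ± 1.03, adjusted p = 0.877). Fgb, the fibrinogen beta chain, whose promoter window is printed above, had 12846, 2889 and 12399.5 against 10009.9, 8910 and 10939.8 CPM (log2 fold change −0.09 ± 0.73, adjusted p = 0.932). For Fgb, assembloid replicates 1 and 3 were above every fresh library, and for both genes replicate 2 was the lowest of the 6 libraries. Alb, the main serum protein and the other HNF1 motif gene shown (ENSMUSG00000029368, chr5:90608647-90624696 on the plus strand), had 8728, 3071 and 13780.4 against 31315, 38322 and 15437 CPM. Its groups did not overlap, yet the difference did not pass the test (log2 fold change −1.74 ± 0.89, adjusted p = 0.161). Apob, the structural protein of very low density lipoprotein, fell from 736, 623 and 585 CPM in fresh hepatocytes to 203, 66.7 and 206 CPM (log2 fold change −2.04 ± 0.46, adjusted p = 0.0147). Plg, plasminogen, fell to 816, 227 and 876 CPM from 3823, 3116 and 2896 CPM (log2 fold change −2.36 ± 0.58, adjusted p = 0.0199), with an adjusted p of 0.0559 and 0.055 (log2 fold changes −2.25 and −2.46) without fresh hepatocyte replicates 1 and 3. F5 and F11, the coagulation factors V and XI, were 6.65-fold and 12.8-fold lower in the fit, with log2 fold changes of −2.73 ± 0.54 and −3.68 ± 0.26. F11 had the smaller spread, with 11.9, 10.4 and 14.0 CPM against 137, 128 and 203 CPM, and homeostatic assembloids were lower still, at 5.22, 6.63 and 4.48 CPM.

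Acute phase genes, which inflammatory cytokines induce in liver, rose in part. Of 16 tested, 7 rose (43.8%, against 22.5% of all genes) and 2 fell (12.5%, against 17.4%), with a median of 2.13. On log2(TPM + 1) values 12 rose and 1 fell, where 4591 of all 9508 genes rose and 700 fell. The 7 became 4 without assembloid replicate 1 or 3, 3 without fresh hepatocyte replicate 1 or 3 and 11 without assembloid replicate 2. Lcn2, lipocalin 2, was 287-fold higher in the fit, at 4116, 1427 and 2943 CPM in the assembloids against 4.48, 21.3 and 3.46 CPM (log2 fold change 8.17 ± 1.08, adjusted p = 0.00314). Saa3, a serum amyloid made mostly outside hepatocytes, had 305, 1035 and 1267 CPM against 5.73, 7.99 and 4.71 CPM (log2 fold change 7.14 ± 0.70, adjusted p = 0.00142), and 66.6, 65.1 and 139.7 CPM in homeostatic assembloids. Il1rn, the interleukin 1 receptor antagonist, had 48.6, 96.5 and 41.0 CPM against 3.92, 3.54 and 0.499 CPM (log2 fold change 4.54 ± 0.80, adjusted p = 0.00694). The iron hormone Hamp went the other way, at 9.88, 3.71 and 0.675 CPM in the assembloids and 1391, 175 and 977 CPM in fresh hepatocytes (log2 fold change −7.46 ± 1.35, adjusted p = 0.00753). In these 4 genes the groups did not overlap. Hp, haptoglobin, had 23566, 6306 and 27293 against 4674, 5944 and 2947 CPM, all 3 assembloid libraries higher, and did not pass (log2 fold change 2.07 ± 0.80, adjusted p = 0.0819), though it passed without assembloid replicate 2 (log2 fold change 2.50, adjusted p = 0.00441).

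Cytochrome P450 enzymes were among the genes furthest from the fresh level. Of 22 tested, 15 fell (68.2%, against 17.4% of all genes) and none rose, with a median of −3.39. Without assembloid replicate 3, 9 fell. Cyp2e1, the pericentral ethanol-oxidising enzyme (ENSMUSG00000025479, chr7:140343652-140355167 on the plus strand), had 18.0, 0.719 and 30.5 CPM in the assembloids and 14231, 8223 and 13258 CPM in fresh hepatocytes (log2 fold change −9.51 ± 1.60, adjusted p = 0.00607). Cyp2f2, its periportal counterpart in zonation, had 13.0, 3.55 and 9.19 against 3674, 4370 and 3440 CPM (log2 fold change −8.80 ± 0.73, adjusted p = 0.000983). Both were far below the fresh level in every assembloid library, 729-fold and 446-fold in the fit. Cyp4f14, a fatty acid hydroxylase, was at 5.56, 3.37 and 11.9 against 513, 375 and 519 CPM (log2 fold change −6.08 ± 0.57, adjusted p = 0.00127). Cyp3a11, the main drug-oxidising form, kept 831, 27.9 and 327 CPM against 2095, 5314 and 1757 CPM and did not pass the test (log2 fold change −2.96 ± 1.15, adjusted p = 0.0811). Cyp2c29 likewise had 2551, 59.9 and 1416 against 5237, 5690 and 5814 CPM (log2 fold change −2.07 ± 1.12, adjusted p = 0.183), and both passed without assembloid replicate 2 (adjusted p 0.0405 for Cyp3a11 and 0.0164 for Cyp2c29, log2 fold changes −2.38 and −1.48). Reads of the Cyp2c, Cyp2d and Cyp3a copies may be shared among them.

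Bile acid synthesis and transport fell with them. Of 11 synthesis genes tested, 9 fell (81.8%, against 17.4% of all genes) and none rose (median −3.14). Of 16 transporters 10 fell (62.5%) and 1 rose (6.25%, against 22.5% of all genes), with a median of −2.30. Without fresh hepatocyte replicate 3, 5 transporters were lower. Cyp7a1, the rate-limiting enzyme, had 1.27, 0.0163 and 0.983 CPM in the assembloids and 115, 26.1 and 270.0 CPM in fresh hepatocytes (log2 fold change −7.43 ± 1.46, adjusted p = 0.00971). Cyp27a1, of the alternative pathway, had 82.6, 15.2 and 71.2 against 466, 501 and 517 CPM (log2 fold change −3.14 ± 0.61, adjusted p = 0.00953). Slco1a1, a basolateral organic anion importer, was down from 1479, 431 and 1559 CPM to 1.10, 0.409 and 0.0587 CPM (log2 fold change −11.01 ± 1.35, adjusted p = 0.00255). In these 3 genes every assembloid library was below every fresh one. Slc10a1, the sodium-dependent bile acid importer, had 56.2, 4.69 and 109.6 against 809, 945 and 859.5 CPM (log2 fold change −3.95 ± 1.01, adjusted p = 0.0231), and its adjusted p was 0.0703, 0.0503 and 0.0595 (log2 fold changes −3.94, −4.01 and −3.97) without assembloid replicate 1 and fresh hepatocyte replicates 1 and 3. The transporter that rose was Abcc4, a basolateral exporter, at 61.8, 69.4 and 55.1 CPM against 0.416, 3.73 and 0.803 CPM (log2 fold change 5.24 ± 0.84, adjusted p = 0.00518).

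Every urea cycle gene tested was lower. All 8 genes fell, with a median of −2.98, and all 8 also fell without each library in turn. Cps1, which makes carbamoyl phosphate from ammonia (ENSMUSG00000025991, chr1:67161988-67270418 on the plus strand), had 16.3, 14.1 and 6.57 CPM in the assembloids and 3873, 4868 and 3459 CPM in fresh hepatocytes, 327-fold lower in the fit (log2 fold change −8.36 ± 0.64, adjusted p = 0.000834). Otc, the next enzyme (ENSMUSG00000031173, chrX:10118503-10187265 on the plus strand), had 1.73, 0.278 and 0.792 against 636, 834 and 583 CPM (log2 fold change −9.47 ± 0.83, adjusted p = 0.00109). Ass1 and Arg1, further along the cycle, were less far down, with Ass1 at 194, 113 and 148 against 3962, 6210 and 3264 CPM (log2 fold change −4.88 ± 0.52, adjusted p = 0.00171). Arg1, which releases urea, had 359.5, 91.4 and 484 against 2602, 2370 and 1883 CPM (log2 fold change −2.88 ± 0.64, adjusted p = 0.0143). The other cultures also had low Cps1, at 4.74, 15.5 and 2.36 CPM in homeostatic assembloids and 10.2, 13.6 and 3.08 CPM in MM HepOrgs, and the direct test against homeostatic assembloids gave log2 fold change 0.71 ± 0.67, adjusted p = 0.509.

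Of 12 genes of gluconeogenesis and glucose handling, 5 fell (41.7%, against 17.4% of all genes) and none rose, with a median of −2.25. Without assembloid replicate 2, 9 fell. Pck1, the committing enzyme of gluconeogenesis, had 5.11, 0.131 and 1.09 CPM against 3286, 2319 and 1484 CPM (log2 fold change −10.11 ± 1.55, adjusted p = 0.00467). Tat, tyrosine aminotransferase, had 73.7, 5.18 and 51.6 against 1370, 2872 and 1764 CPM (log2 fold change −5.54 ± 1.03, adjusted p = 0.00838). Fatty acid oxidation and ketogenesis had 13 of 17 genes lower and none higher (median −1.63), falling to 8, 7 and 6 without assembloid replicate 3 and fresh hepatocyte replicates 1 and 3, and on log2(TPM + 1) values 7 were lower (median −0.75). Acsl1, which activates long-chain fatty acids, had 99.8, 42.6 and 110.5 against 1724, 1405 and 1409 CPM (log2 fold change −4.17 ± 0.46, adjusted p = 0.00192), and Etfa, an electron carrier of beta-oxidation, had 149, 101 and 133 against 594, 542 and 595 CPM (log2 fold change −2.18 ± 0.24, adjusted p = 0.00201). In cholesterol and fatty acid synthesis 3 of 22 genes fell and none rose, a share no larger than the 17.4% of all genes, with a median of −0.31 that became 0.73 on log2(TPM + 1) values. They included Insig1, the sterol sensor partner, and Srebf1, the lipogenic transcription factor, with log2 fold changes of −2.43 and −1.94.

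Genes of both liver zones were lower. Among pericentral genes 9 of 15 fell (median −2.03), 5 fell without fresh hepatocyte replicate 2 or 3, and 5 of 10 tested fell on log2(TPM + 1) values, where 1 rose. Among periportal genes 11 of 17 fell (median −3.39), and none rose in either list. Lgr5, the Wnt target of pericentral hepatocytes, had 0.703, 0.311 and 1.01 CPM against 4.19, 14.4 and 9.92 CPM (log2 fold change −3.74 ± 0.64, adjusted p = 0.0063). Glul, glutamine synthetase of the last cells before the central vein, had 123, 20.6 and 78.3 against 85.0, 208 and 129.8 CPM and did not pass (log2 fold change −0.94 ± 0.64, adjusted p = 0.277). Gls2 and Sds, periportal enzymes of glutamine and serine catabolism, had log2 fold changes of −6.84 ± 0.57 and −9.29 ± 0.89. Sds in particular was at 0.988, 0.0981 and 0.514 CPM in the assembloids and 432, 328 and 308 CPM in fresh hepatocytes.

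**Figure D3:**
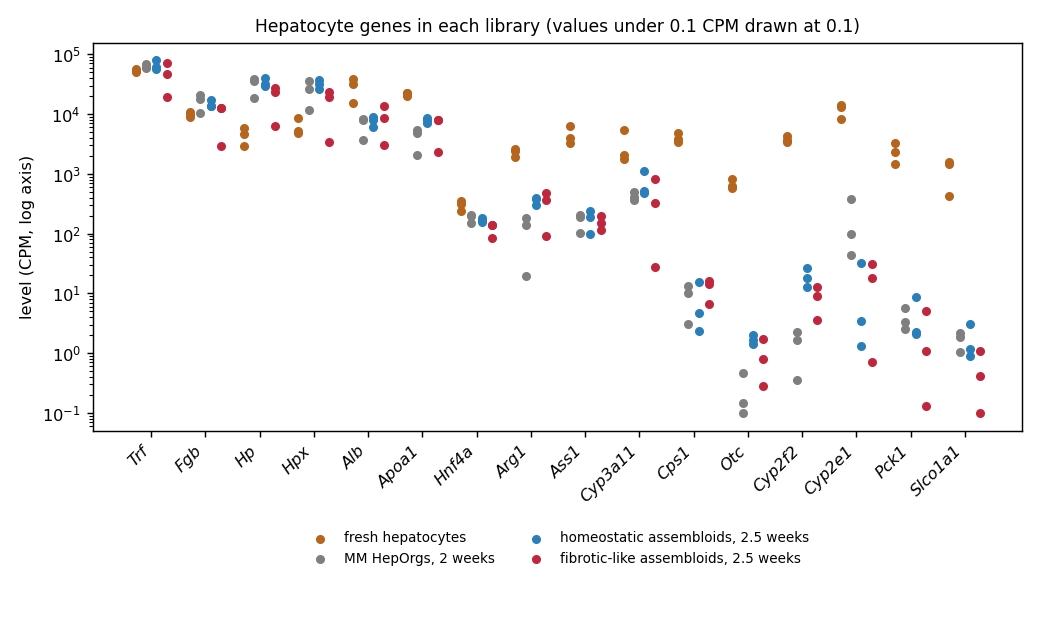
CPM of 16 hepatocyte genes on a log axis, 1 point per library in 4 groups, with values under 0.1 drawn at 0.1. Trf and Fgb overlap between fibrotic-like assembloids and fresh hepatocytes, and Cps1, Otc, Cyp2f2, Cyp2e1, Pck1 and Slco1a1 lie far apart. The 3 kinds of culture overlap for Cps1, and Otc is lower in MM HepOrgs than in homeostatic assembloids.

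The assembloids had lower CPM sums of the study's hepatocyte markers. Hepatocyte genes were therefore also counted per 1000 reads of the plasma protein genes, as a description with no test. On this scale Cps1 was at 0.0855, 0.269 and 0.0293 in the assembloids and 12.5, 14.9 and 12.5 in fresh hepatocytes. Otc was at 0.00904, 0.00529 and 0.00353 against 2.06, 2.55 and 2.11. Both stayed apart by over an order of magnitude. Hnf4a overlapped between the groups, at 0.732, 1.58 and 0.632 against 1.15, 0.952 and 0.852, and Alb overlapped too, at 45.7, 58.4 and 61.4 against 101, 117 and 55.8. Hp was at 123, 120 and 121.5 in the assembloids against 15.1, 18.2 and 10.7, without overlap. Alb is itself on the plasma protein list and part of the reads it was scaled by, whereas Hp is on the acute phase list only. The libraries of the assembloids were much closer to each other on this scale for Hp than in CPM.

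Biliary genes were almost absent from fresh hepatocytes. All 6 cholangiocyte markers of the study rose (median log2 fold change 10.10), 17 of 22 other cholangiocyte genes rose and none fell (median 6.97), and all 6 simple epithelial keratins rose (median 6.61). The study's markers name cells that were added by design. Krt19, a keratin of bile ducts (ENSMUSG00000020911, chr11:100031636-100039491 on the minus strand), had 183, 1437 and 177 CPM in the assembloids and 0, 0.755 and 0.388 CPM in fresh hepatocytes (log2 fold change 10.55 ± 1.75, adjusted p = 0.00584). Krt7, its partner, had 224, 845 and 299 against 0, 0.715 and 0.194 CPM (log2 fold change 10.47 ± 1.42, adjusted p = 0.00336), and for both keratins replicate 2 was highest. Homeostatic assembloids, with the same number of cholangiocytes added, had 59.3, 42.5 and 33.8 CPM of Krt19, and the direct difference did not pass (log2 fold change 3.73 ± 1.23, adjusted p = 0.0963). Cldn4, a tight junction claudin, had 61.3, 124 and 87.8 against 0, 0.119 and 0 CPM (log2 fold change 10.28 ± 0.80, adjusted p = 0.000866). Spp1, osteopontin, had 7894, 4425 and 5546 against 1.59, 107 and 19.8 CPM (log2 fold change 7.12 ± 1.59, adjusted p = 0.0148), and without fresh hepatocyte replicate 3 its log2 fold change was 6.76 with an adjusted p of 0.0622. Spp1 was also abundant in MM HepOrgs without added cholangiocytes, at 11433, 10512 and 7466 CPM, unlike Krt19 at 1.59, 0.940 and 14.4 CPM there. Krt8, a keratin of hepatocytes and cholangiocytes alike, had 1715, 2776 and 1716 against 316, 483 and 334 CPM (log2 fold change 2.46 ± 0.40, adjusted p = 0.00528).

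Of 8 fetal and progenitor genes tested, 6 rose and 1, Lgr5, fell (median 5.41). Afp, alpha-fetoprotein, had 178, 90.0 and 69.8 CPM in the assembloids and 5.17, 4.13 and 5.49 CPM in fresh hepatocytes (log2 fold change 4.50 ± 0.42, adjusted p = 0.00126). Gpc3, a fetal liver proteoglycan, had 40.0, 38.7 and 33.0 against 0.0979, 0.954 and 0.305 CPM (log2 fold change 6.32 ± 0.72, adjusted p = 0.00208). Every assembloid library was above every fresh library for both, and Afp was at 100.4, 93.5 and 20.3 CPM in homeostatic assembloids.

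Mesenchymal and portal fibroblast genes rose, and the direction of the stellate cell genes depended on the scaling. Of the study's 9 mesenchymal markers 8 rose (median 5.34) and Des, desmin, did not pass, and of 20 portal fibroblast genes 16 rose and none fell (median 5.02). Pdgfra, the receptor that marks the added mesenchyme, had 18.3, 65.2 and 67.7 CPM against 0.588, 2.702 and 1.61 CPM (log2 fold change 4.94 ± 0.76, adjusted p = 0.00466), and 1.72, 1.33 and 3.90 CPM in homeostatic assembloids. Cdh11, a mesenchymal cadherin, had 17.8, 36.9 and 23.6 against 0.147, 0.0795 and 0.0831 CPM (log2 fold change 7.47 ± 0.45, adjusted p = 0.00062). Fbln2, an elastic fibre protein of portal fibroblasts, had 180.1, 250.1 and 186 against 0.196, 0.993 and 0.610 CPM (log2 fold change 8.36 ± 0.65, adjusted p = 0.000858), and Lum, a collagen-binding proteoglycan, had 139.9, 182 and 162 against 0.612, 3.81 and 3.77 CPM (log2 fold change 5.87 ± 0.73, adjusted p = 0.00265). In all 4 genes the groups were separate. Of 11 stellate cell genes 2 rose (18.2%, against 22.5% of all genes) and 5 fell (45.5%, against 17.4%), a median of −1.30 that was 1.97 on log2(TPM + 1) values, where 6 of them were tested, 4 rose and 1 fell. The 5 became 2 without assembloid replicate 3 or fresh hepatocyte replicate 3 and 3 without fresh hepatocyte replicate 2, and of the 2 that rose 1 was left without assembloid replicate 3 or fresh hepatocyte replicate 3. Cygb, cytoglobin, was the stellate gene that rose without each library, at 26.3, 40.1 and 57.9 against 0.465, 3.10 and 2.74 CPM (log2 fold change 4.28 ± 0.72, adjusted p = 0.00607). Colec11, a collectin, fell to 1.16, 1.57 and 0.367 CPM from 6.61, 16.8 and 19.4 CPM (log2 fold change −3.73 ± 0.67, adjusted p = 0.00744).

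Contractile genes rose in part. Of 17 tested 10 rose (58.8%, against 22.5% of all genes) and none fell (median 2.85), and 6 rose without fresh hepatocyte replicate 3. Acta2, the smooth muscle actin of myofibroblasts, had 8.62, 54.0 and 7.57 CPM in the assembloids and 0, 0.278 and 0.139 CPM in fresh hepatocytes (log2 fold change 7.13 ± 1.28, adjusted p = 0.00734), with replicate 2 well above the other two. Flna, filamin, had 117, 276 and 127 against 3.84, 9.496 and 5.93 CPM (log2 fold change 4.75 ± 0.54, adjusted p = 0.00205). Of the pair with a CArG box shown above, Cnn2, a calponin, had 37.9, 79.9 and 54.6 against 0.661, 7.71 and 4.13 CPM (log2 fold change 3.79 ± 0.83, adjusted p = 0.0142), and without fresh hepatocyte replicate 3 its log2 fold change of 3.77 had an adjusted p of 0.0582. Vcl, vinculin, the other gene of the pair, had 22.7, 36.3 and 19.4 against 21.2, 17.8 and 15.7 CPM and did not pass (log2 fold change 0.53 ± 0.28, adjusted p = 0.181). Fn1, fibronectin, which hepatocytes secrete too, had 1600, 1487 and 1624 against 1962, 1386 and 1342 CPM (log2 fold change 0.01 ± 0.33, adjusted p = 0.987).

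Most collagens rose. Of 25 tested 17 rose (68.0%, against 22.5% of all genes) and 2 fell (8.0%, against 17.4%), with a median of 4.04. Without each library 15 to 17 were higher. Together they took 1252, 3926 and 4549 CPM in the assembloids and 222, 234 and 145 CPM in fresh hepatocytes. Col1a1, the main chain of fibrillar collagen in scar (ENSMUSG00000001506, chr11:94827050-94843868 on the plus strand), had 295, 1094 and 1040 CPM against 0.0245, 3.18 and 0.277 CPM, 694-fold higher in the fit (log2 fold change 9.44 ± 1.77, adjusted p = 0.00848). Col3a1, the reticular fibril chain (ENSMUSG00000026043, chr1:45350698-45395840 on the plus strand), had 369, 1392 and 1818 against 1.49, 11.9 and 6.62 CPM (log2 fold change 7.47 ± 1.10, adjusted p = 0.0042). Replicate 1 was the lowest assembloid library for both, and still above every fresh library. Homeostatic assembloids held 45.9, 62.3 and 61.8 CPM of Col1a1 and 37.8, 59.5 and 40.1 CPM of Col3a1, also below every fibrotic-like library. Col8a1, a short-chain collagen, had 29.3, 33.5 and 25.1 against 0, 0.0397 and 0.111 CPM (log2 fold change 8.32 ± 0.61, adjusted p = 0.000801). The 2 that fell were Col13a1 (log2 fold change −4.37), a transmembrane collagen, and Col18a1, a basement membrane collagen that hepatocytes make, which fell to 22.1, 24.1 and 33.5 CPM from 175, 121 and 82.9 CPM (log2 fold change −2.25 ± 0.32, adjusted p = 0.00394).

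Enzymes that process collagen rose with it, 16 of 20 genes and none lower (median 3.36), with 11 higher without fresh hepatocyte replicate 3. Lox, which crosslinks collagen, had 28.1, 157 and 30.9 against 0, 0.358 and 0.0277 CPM (log2 fold change 8.92 ± 1.34, adjusted p = 0.00436), and Sparc, a collagen chaperone of the matrix, had 315, 730.1 and 709 against 7.66, 34.4 and 38.3 CPM (log2 fold change 4.45 ± 0.73, adjusted p = 0.00555). Of 22 proteases and inhibitors 18 rose and none fell (median 5.60), 17 or 18 without each library. Mmp2, gelatinase A of fibroblasts, had 104, 329.6 and 444 CPM against 0.196, 1.67 and 0.554 CPM (log2 fold change 8.47 ± 1.06, adjusted p = 0.00271). Timp2, an inhibitor of metalloproteases, had 68.7, 100.0 and 149 against 0.514, 2.54 and 2.85 CPM (log2 fold change 5.72 ± 0.72, adjusted p = 0.00272). In the fit they were 355-fold and 52.8-fold above the fresh level, and no homeostatic library reached a fibrotic-like one, at 12.8, 10.4 and 20.4 CPM of Mmp2 and 12.8, 9.06 and 9.42 CPM of Timp2. Plat, tissue plasminogen activator, had 141, 157 and 122 against 0.0490, 0.238 and 0.139 CPM (log2 fold change 9.64 ± 0.49, adjusted p = 0.000434). Timp1, Timp3 and Timp4 had no count in any of the 27 libraries, and each lies inside the span of another gene, where the counting left most genes at 0. Of 26 laminins and integrins 18 rose and 1 fell (median 3.22). Itgb6, an epithelial integrin that activates latent TGF-beta, had 17.7, 47.6 and 25.9 CPM and no count in fresh hepatocytes, at least 1049.8-fold higher.

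**Figure D4:**
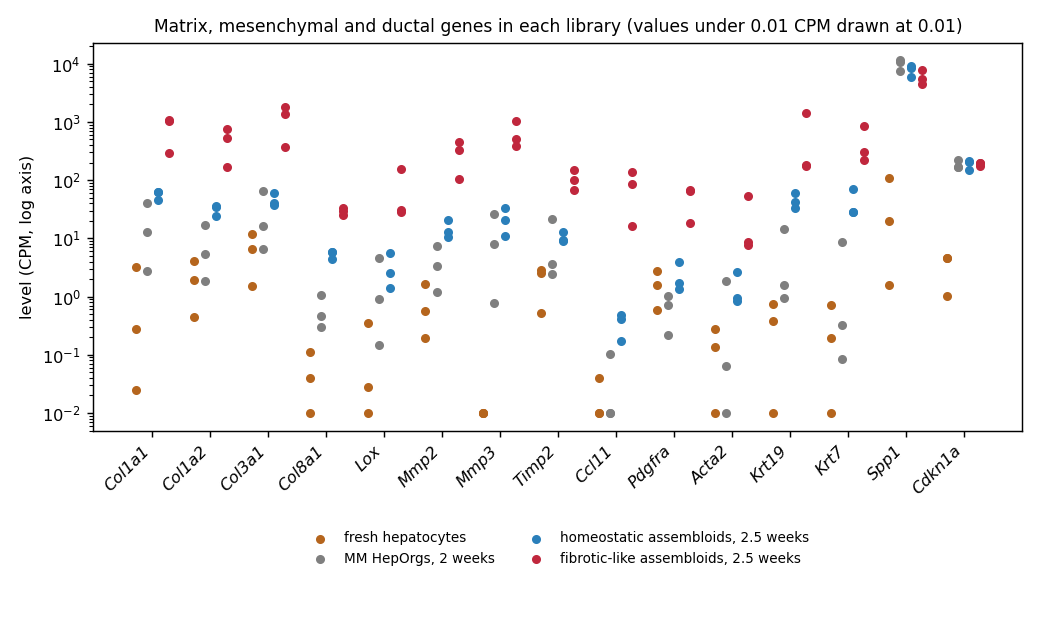
CPM of 15 matrix, chemokine, contractile, biliary and p53 target genes on a log axis, 1 point per library in 4 groups, with values under 0.01 drawn at 0.01. Every gene shown is higher in the 3 fibrotic-like libraries than in fresh hepatocytes, and Cdkn1a and Spp1 are at a like level in the 3 kinds of culture.

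Signalling genes rose in part. Of 20 TGF-beta and YAP genes 9 rose and none fell (median 2.59), and 14 of 17 rose on log2(TPM + 1) values. Tgfb2, a ligand, had 13.8, 14.8 and 20.0 against 0, 0.119 and 0.0554 CPM (log2 fold change 7.43 ± 0.66, adjusted p = 0.00115), whereas Tgfb1 had 0.209, 0.441 and 0.778 against 0.0979, 0.397 and 0.554 CPM and did not pass. Ccn2 and Ankrd1 are YAP targets, and Ccn2 had 260.0, 529 and 263 CPM against 0.906, 1.67 and 5.82 CPM (log2 fold change 6.95 ± 0.89, adjusted p = 0.00287). Ankrd1 had 90.5, 83.5 and 110.4 against 0, 0.159 and 0 CPM (log2 fold change 10.13 ± 0.80, adjusted p = 0.000886). Of 11 Notch genes 3 rose (27.3%, against 22.5% of all genes) and 1 fell (9.09%, against 17.4%), with a median of −0.13 that was 1.86 on log2(TPM + 1) values. The 3 that rose were Jag1, Jag2 and Nrarp, and the 1 that fell was Dll4, an endothelial ligand (log2 fold changes 3.41, 4.6, 3.12 and −4.29). Nrarp no longer passed without any one library except fresh hepatocyte replicate 2 (log2 fold changes 2.62 to 3.30, adjusted p 0.053 to 0.141), and Dll4 without any one except assembloid replicate 2 (log2 fold changes −3.87 to −4.73, adjusted p 0.0534 to 0.113).

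Of 14 chemokines and cytokines 12 rose and none fell (median 5.20). Ccl11, eotaxin (ENSMUSG00000020676, chr11:81948618-81953781 on the plus strand), had 16.3, 84.3 and 139 CPM in the assembloids and 0, 0.0397 and 0 CPM in fresh hepatocytes (log2 fold change 10.57 ± 1.13, adjusted p = 0.00176), and 0.172, 0.475 and 0.412 CPM in homeostatic assembloids. Cxcl5, a neutrophil chemokine, had 316, 548 and 285 against 0, 0.0397 and 0 CPM (log2 fold change 12.83 ± 0.71, adjusted p = 0.000526). Il33, an alarmin, had 13.2, 68.7 and 42.4 against 1.40, 3.38 and 1.14 CPM (log2 fold change 4.39 ± 0.75, adjusted p = 0.00636). Cxcl12, a stromal chemokine, went the other way without passing the test, at 88.0, 182 and 232 against 538, 269.7 and 363 CPM (log2 fold change −1.22 ± 0.43, adjusted p = 0.063), while the fibrotic-like assembloids were higher in it than the homeostatic ones at 34.5, 51.2 and 54.1 CPM (log2 fold change 1.84 ± 0.36, adjusted p = 0.027).

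The study names ligands and receptors of cell interactions, pro-inflammatory molecules, metalloproteases and an adhesion gene from its assembloids. In this list 10 of 14 tested rose and none fell (median 5.28). It is no independent evidence, because it was chosen on the study's own assembloids. Ddr2, a collagen receptor, had 15.99, 22.7 and 41.4 against 0.294, 1.15 and 1.25 CPM (log2 fold change 4.84 ± 0.65, adjusted p = 0.00327). Gas6, the ligand of Axl, had 221, 359.7 and 589.7 against 21.1, 22.2 and 12 CPM (log2 fold change 4.4 ± 0.48, adjusted p = 0.00187), and Axl itself had 28.4, 43.2 and 31.6 against 2.10, 17.4 and 5.35 CPM and did not pass (log2 fold change 2.06 ± 0.72, adjusted p = 0.0611), though it passed without fresh hepatocyte replicate 2 (log2 fold change 3.22, adjusted p = 0.00846). Cd63, the tetraspanin receptor of Timp1, had 578, 365 and 614 against 0.955, 3.42 and 3.05 CPM (log2 fold change 7.69 ± 0.64, adjusted p = 0.000984), at 506, 529.5 and 644 CPM in MM HepOrgs.

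Cell cycle genes rose in part, 10 of 20 (50.0%, against 22.5% of all genes) and none lower (median 1.60). On log2(TPM + 1) values 17 of 19 rose, where 4591 of all 9508 genes did. In the main test 5 were higher without fresh hepatocyte replicate 1 and 3 without replicate 3. Top2a, the topoisomerase of dividing cells, had 4.84, 19.0 and 9.27 CPM against 0.930, 1.51 and 0.222 CPM (log2 fold change 3.60 ± 0.81, adjusted p = 0.015), with replicate 2 highest among the assembloids. Of 12 p53 targets and senescence genes 9 rose (75.0%, against 22.5% of all genes) and none fell (median 2.35), 9 or 10 without each library. Cdkn1a, the inhibitor p21 (ENSMUSG00000023067, chr17:29309936-29319701 on the plus strand), had 174, 196 and 194 CPM in the assembloids and 1.00, 4.65 and 4.57 CPM in fresh hepatocytes (log2 fold change 5.77 ± 0.64, adjusted p = 0.00192). Its level in the other cultures was 204, 214 and 151 CPM in homeostatic assembloids and 169.5, 169 and 224 CPM in MM HepOrgs, and the direct test against homeostatic assembloids gave log2 fold change −0.01 ± 0.41, adjusted p = 0.991. Cdkn2b, the inhibitor p15, had 48.9, 103 and 48.2 against 0.563, 0.278 and 0.222 CPM (log2 fold change 7.38 ± 0.56, adjusted p = 0.000815), and Bax, a p53 target of apoptosis, had 95.0, 85.3 and 91.7 against 27.02, 19.5 and 23.6 CPM (log2 fold change 1.95 ± 0.18, adjusted p = 0.00123).

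Immediate early genes, which tissue dissociation can induce, were lower in the assembloids in 7 of 16 cases (43.8%, against 17.4% of all genes). In this list 1 was higher (median −2.61). Without assembloid replicate 1 or 3, and on log2(TPM + 1) values (median −0.82), 3 were lower. Dusp1, a phosphatase induced by stress, had 48.8, 54.4 and 55.7 against 537, 278 and 182 CPM (log2 fold change −2.65 ± 0.42, adjusted p = 0.00512). Fos, a component of AP-1, had 11.5, 47.0 and 18.1 CPM in the assembloids and 748, 67.7 and 84.1 CPM in fresh hepatocytes, of which replicate 1 was by far the highest, and without that library its log2 fold change was −1.57 (adjusted p = 0.102) instead of −3.53 (0.0451). The Fos call was also lost without each assembloid library or fresh hepatocyte replicate 3. Ier3 was the gene that rose, at 116, 159 and 192 against 0.759, 1.51 and 1.44 CPM (log2 fold change 6.94 ± 0.40, adjusted p = 0.00062).

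Endothelial and macrophage genes were lower in the assembloids. Of 12 endothelial genes 10 fell and none rose (median −5.02), and of 11 immune genes 8 fell and none rose (median −8.04, or −9.16 with genes at 0 set to their bound). Clec4f, a Kupffer cell lectin, had no count in any assembloid library and 17.1, 119 and 68.3 CPM in fresh hepatocytes, at least 3654.3-fold lower. Kdr, an endothelial receptor, had no count either and 9.38, 43.0 and 32.7 CPM in fresh hepatocytes, at least 1569.9-fold lower. Fresh replicate 2 was highest for both. Dpp4, a peptidase that hepatocytes carry on their canaliculi too, had 17.6, 15.4 and 24.2 against 185, 178 and 166 CPM (log2 fold change −3.21 ± 0.23, adjusted p = 0.00071), and Eng, which fibroblasts also carry, had 50.1, 65.9 and 96.4 against 16.1, 86.1 and 62.8 CPM and did not pass (log2 fold change 0.36 ± 0.58, adjusted p = 0.651).

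Of 10 male-biased liver genes, which growth hormone pulses maintain, 9 fell and none rose (median −4.16). Elovl3, a fatty acid elongase, had 0.209, 0.0163 and 0 CPM in the assembloids and 258, 924 and 1603 CPM in fresh hepatocytes (log2 fold change −13.01 ± 1.55, adjusted p = 0.00239). Of 4 female-biased genes tested 1 rose (25.0%, against 22.5% of all genes) and none fell (median −0.48), a call lost without any one library except assembloid replicate 2. Of 4 sex-linked genes, all on the Y chromosome, 2 fell (50.0%, against 17.4% of all genes, median −0.83). Neither fell without assembloid replicate 3 or fresh hepatocyte replicate 1 or 3. They summed to 112, 90.1 and 80.4 CPM in the assembloids and 173, 143 and 183 CPM in fresh hepatocytes, so Y-linked transcripts were present in every library of both groups. The sex of the animals behind each library is not in the labels, and its part in these lists was not tested.

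**Figure D5:**
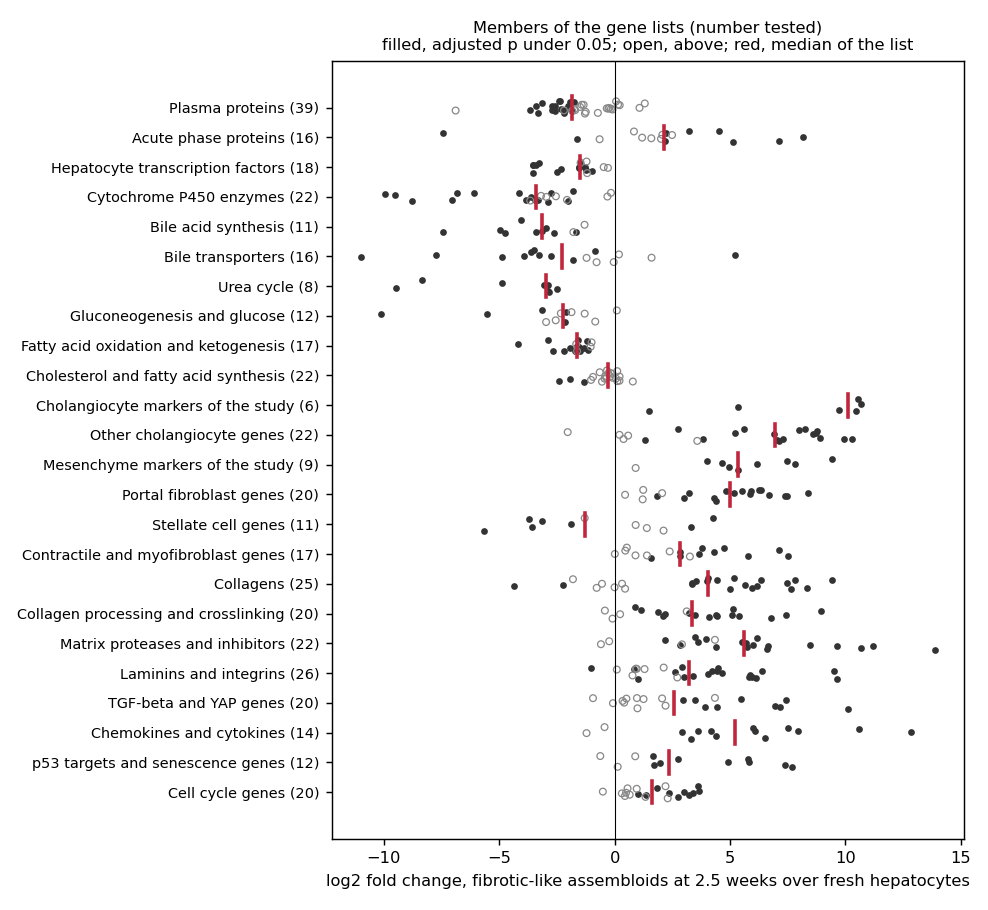
Log2 fold change of fibrotic-like assembloids over fresh hepatocytes for the members of 24 gene lists, 1 point per gene, filled where the adjusted p is under 0.05, with the list median as a red line. The matrix, biliary and chemokine lists lie mostly above 0, and the hepatocyte lists, apart from the acute phase proteins, mostly below.

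Against homeostatic assembloids of the same age, calls fell on lists of the mesenchyme and its matrix. In that test 6 of 9 mesenchymal markers, 10 of 20 portal fibroblast genes, 12 of 25 collagens, 10 of 23 proteases and inhibitors, 11 of 26 laminins and integrins and 6 of 15 chemokines were higher in the fibrotic-like assembloids. Over all genes 4.51% were higher and 0.396% lower in this test. edgeR called 0 of 18 transcription factors (6 at an unadjusted p under 0.05, 2 by DESeq2), 0 of 22 P450 enzymes (1 and 0), 0 of 8 urea cycle genes (1 and 0), 0 of 12 gluconeogenesis genes (5 and 3), 0 of 22 cholesterol and fatty acid synthesis genes (8 and 1) and 0 of 12 p53 targets (4 and 2). It called 1 of 17 fatty acid oxidation genes, which was lower (12 and 6), and 1 of 39 plasma proteins, which was higher (6 and 3). Pdgfra, whose cells were added in a larger number, was higher (log2 fold change 4.43 ± 0.74, adjusted p = 0.017). Col3a1 had log2 fold change 4.70 ± 1.01, adjusted p = 0.0315, Mmp2 log2 fold change 4.33 ± 0.83, adjusted p = 0.0243 and Ccl11 log2 fold change 7.68 ± 0.89, adjusted p = 0.00673. Mmp3, at 11.2, 33.8 and 20.4 CPM in homeostatic assembloids, had log2 fold change 4.88 ± 1.10, adjusted p = 0.0438. Col1a1, with every fibrotic-like library above every homeostatic one, did not pass (log2 fold change 3.84 ± 1.21, adjusted p = 0.0869). Against MM HepOrgs, which contain neither added cell type, 19 of 25 collagens and 5 of 6 cholangiocyte markers of the study were higher, where 10.4% of all genes were. Lower were 7 of 17 fatty acid oxidation genes, 3 of 18 transcription factors, 4 of 39 plasma proteins, 1 of 22 P450 enzymes and 1 of 8 urea cycle genes, where 5.08% of all genes were.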

How the data were processed

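The comparison was made between 3 fibrotic-like assembloid libraries and 3 fresh hepatocyte libraries, mapped from sample titles, with homeostatic assembloids and MM HepOrgs as 3 libraries each for the direct tests. RNA was isolated with PicoPure and sequenced by SMARTseq2. The authors aligned reads to GRCm39 with STAR and deposited whole-number gene counts from featureCounts beside TPM values, and 10 of the 37 libraries in the table were not used because no sample title matched them. The gene length beside the counts lay within 5% of the whole gene span for 80.8% of genes, and 83.0% of the 848 protein-coding genes inside another gene had no count in any library, against 14.7% of those without overlap, so such genes cannot be read. No strand setting is given, and overlapping genes or near-identical copies may share reads.

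From the deposited counts, edgeR 4.0.16 (R 4.3.3) was run with filterByExpr, TMM and its quasi-likelihood test, two-sided, with Benjamini-Hochberg adjustment over all genes tested and a threshold of 0.05. The direct tests came from 1 fit of 12 libraries. A log2 fold change is given ± its standard error. Fits used a prior count of 2, a fold is the fitted log2 fold change on a linear scale, and a group at 0 was set to 3 counts in all for a bound. Alternatives were DESeq2 1.42.0, RLE scaling, other filters, log2(TPM + 1) and log2(TPM + 0.1) with limma 3.58.1, fits of 15 and 27 libraries, the replicate block and leaving out each library. The code was tested on simulated counts. Counts of reads limit precision only for low genes. The named genes were those of 36 gene lists (552 genes, 511 tested), the genes the study names, the 10 highest and lowest log2 fold changes among well-counted genes (mean log2 CPM of 5 or more) whose groups were apart, the 10 genes with most reads per group, and the members of the hepatocyte lists with the smallest change. Members and lists were chosen with earlier results of these data known. Some genes stayed in the fits and lists but are not reported here.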

Additional observations from a re-analysis of the deposited data

Results flagged for a closer look

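Reporter transcripts were counted beside the genes and entered no comparison. The eGFP reporter of the mesenchyme had 554, 1954 and 10895 counts in fibrotic-like replicates 1, 2 and 3, and the tdTomato reporter of the cholangiocytes had 250, 1583 and 4846, while no fresh hepatocyte library held a count of either. Replicate 3 was highest for both reporters, whereas the cholangiocyte keratins were highest in replicate 2. Homeostatic assembloids of the same age had 24, 33 and 855 counts of eGFP and 86, 52 and 2224 of tdTomato.

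Some genes were lower in fibrotic-like assembloids than in fresh hepatocytes but higher than in homeostatic assembloids, each past the threshold of its own edgeR test. The log2 fold change against homeostatic assembloids was 1.15 for F11 (adjusted p = 0.0241), 2.95 for Reln (0.0393), 3.34 for Ngfr (0.0312) and 2.16 for Susd4 (0.0148), against −3.68, −1.88, −3.17 and −4.00 in the comparison with fresh hepatocytes. Reln and Ngfr are genes of stellate cells, F11 encodes a coagulation factor, and Susd4 is a complement regulator with higher levels in male liver. Susd4 stood at 5.68, 5.90 and 4.97 CPM in fibrotic-like assembloids, 80.5, 83.8 and 102 CPM in fresh hepatocytes and 1.64, 1.37 and 0.55 CPM in homeostatic assembloids. Both contrasts share the fibrotic-like libraries, and the calls of Reln and Ngfr against fresh hepatocytes were lost without fibrotic-like replicate 3 or fresh hepatocyte replicate 3, with log2 fold changes of −1.58 and −1.85 for Reln and −3.11 and −3.14 for Ngfr. That of Reln was also lost without fibrotic-like replicate 1 or fresh hepatocyte replicate 2 (log2 fold changes −1.66 and −1.64). No gene passed against homeostatic assembloids without homeostatic replicate 2.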

How the results depend on the processing

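Against fresh hepatocytes, the counts of 3014 higher and 2332 lower genes were 3017 and 2324 with RLE scaling and 3702 and 2962 with DESeq2, and each other setting is given where it moved a count by over 1.5 times. Requiring at least 10 counts in every library left 1953 higher, since fewer genes were tested. On log2(TPM + 1) values 4591 were higher and 700 lower, and on log2(TPM + 0.1) values 4708 and 706, so 86.8% and 87.0% of calls were higher against 56.4%, with medians of all genes of 0.776 and 0.939 in place of 0.031. A fit of 15 libraries gave 1177 and 565, and a fit of 27 gave 1175 lower, and without the library of few genes, homeostatic assembloid 1 week replicate 2, an alternative added after seeing the data, these became 3380 and 2749, and 3967 and 3243. Without single libraries the higher count ran from 1812 to 2779 and the lower from 1410 to 2181, both lowest without fresh hepatocyte replicate 3. The calls among list members, 184 higher and 150 lower, were 122 and 54 in the 15-library fit, and 95 higher with at least 10 counts in every library, and ran from 143 to 185 and from 97 to 165 without single libraries. Of 101 named genes, 25 were no longer past the threshold in the 15-library fit, 9 without fresh hepatocyte replicate 3 and 3 on log2(TPM + 1) values, and no called gene changed sign under any setting run.

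Against homeostatic assembloids the 681 genes became 2209 with DESeq2, 392 with at least 10 counts in every library, 1151 on log2(TPM + 1), 1065 in the 27-library fit without the library of few genes and 0 with it (1965 at an unadjusted p under 0.05), and 0 to 1203 without single libraries. Against MM HepOrgs the 2143 became 3471, 1256 and 1377 under the first 3 of these settings, 1258 on log2(TPM + 0.1), 1380 with only the 2 groups, 223 in the 27-library fit, and 499 to 2391 without single libraries. Apart from the smaller tables, the cause of these moves was not tested.

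In the main comparison the deviations of same-numbered libraries had correlations of 0.108, 0.066 and −0.026. Libraries of different number gave −0.104 to 0.04. With 3 libraries per group these values cannot show whether replicate numbers paired the samples. Between fibrotic-like and homeostatic assembloids the same-numbered correlations were 0.03, 0.193 and 0.213, against −0.221 to 0.086 for libraries of different number. Between fibrotic-like assembloids and MM HepOrgs they were 0.201, −0.189 and −0.173, against −0.237 to 0.311. Whether same-numbered cultures shared a batch was not tested. With the replicate number as a block, 2546 genes were higher and 1842 lower against fresh hepatocytes, and 315 passed against homeostatic assembloids. Counting limits the folds of named genes with few counts in a group, and folds of genes with no count in a group are bounds only.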
